A study of Bos taurus with 18 samples.

Results

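Blastocysts from bovine oocytes matured with a miR-34c inhibitor were compared with blastocysts from oocytes matured in medium with only water added (control). The comparison held 3 miR-34c inhibitor pools and 4 control pools, which were all the pools carrying these treatment labels among the 18 sequenced pools of the series. In both groups the oocytes came from slaughterhouse ovaries and from follicles of 2 to 4 mm. They were matured in vitro (IVM) for 22 h, fertilized and cultured to 8 d post insemination (dpi), when 10 blastocysts were combined into each pool. The control group is labelled untreated, and the study gave it RNase-free water in the volume used for the other groups. The remaining 11 pools, 3 with a negative control (NC) inhibitor, 3 with an NC mimic and 5 with a miR-34c mimic, took part in the fit and are given below only where they bear on a gene of this comparison.

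MicroRNAs are short RNAs that guide Argonaute proteins to messenger RNAs carrying a match to their seed, the stretch near the 5′ end, and thereby lower the stability or translation of those messengers. miR-34c belongs to the miR-34 family, which is known for restraining cell cycle and survival genes and for acting downstream of p53. An inhibitor binds the mature microRNA by base pairing, so that messengers that it represses directly can become more abundant. The inhibitor was present during IVM only, while the RNA was taken a week later from blastocysts, after the embryo had activated its own genome. A blastocyst holds an outer trophectoderm, which forms the placenta, and an inner cell mass, which forms the embryo proper.

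Counts of 5′ ends of mRNA were deposited per Ensembl gene for each pool. Totals ranged from 2250236 to 4071640 counts in the miR-34c inhibitor pools and from 2404575 to 3197174 in the control pools, and 11082 of the 27270 listed genes had enough counts to be tested. Mature miR-34c is not measured in such libraries, and the counts therefore give no check that the inhibitor acted. The table names genes by Ensembl identifier only, and 0 of its identifiers were found in the gene table at hand. Genes are for this reason given by identifier, without a function, and the blastocyst label could not be checked against marker genes. With pools of whole embryos, fewer cells of a type and less RNA per cell cannot be told apart.

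The 3 miR-34c inhibitor pools did not lie together. Levels were expressed as CPM, a gene's count relative to the library total after scaling by the trimmed mean of M-values (TMM). Of the variance in log2 CPM over the 18 pools, 50.2% fell on the first principal component. Inhibitor replicate 1 had the lowest score of all pools, -69.0, and inhibitor replicate 2 the highest, 51.7, while inhibitor replicate 3 had a score of -20.6. In the control group replicate 1 had a score of -36.6, and replicates 2, 3 and 4 had 36.8, 29.9 and 44.8. Each group thus had pools on both sides of zero, and the range of the inhibitor pools held that of the control pools.

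**Figure D1:**
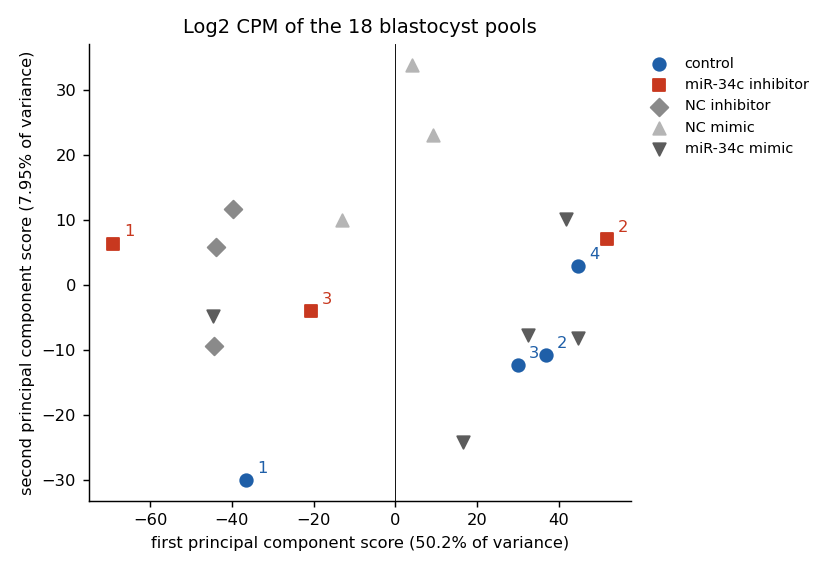
Scores of the 18 pools on the first (x axis) and second (y axis) principal components of log2 CPM. Each point is 1 pool, coloured by treatment for the inhibitor and control pools, whose replicate numbers are printed beside them. Inhibitor replicates 1 and 2 sit at the opposite ends of the x axis, at -69.0 and 51.7, and control replicate 1 sits apart from the other 3 controls.

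Single pools of the inhibitor group differed widely from each other. Inhibitor replicates 1 and 2 differed at least 2-fold in 4505 genes, 40.7% of those tested. Of these, 2175 were higher in replicate 1 and 2330 were higher in replicate 2, and 1101 genes differed at least 4-fold. Inhibitor replicate 3 had a level between those of replicates 1 and 2 in 3936 of the 4505 genes. The group means of log2 CPM, which average 3 or 4 pools and so vary less than single pools, differed at least 2-fold in 309 genes, or 2.79%.

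Some pools were closer to a pool of the other treatment than to their own group. Inhibitor replicate 2 differed at least 2-fold from control replicate 4 in 690 genes, or 6.23%, the smallest share among the 21 pairs of pools. From inhibitor replicate 3 it differed in 2372 genes, or 21.4%. Control replicate 1 differed from inhibitor replicate 3 in 909 genes (8.20%) and from the other 3 controls in 2660 to 3236 genes (24.0% to 29.2%). The 3 remaining controls differed among themselves in 728 to 898 genes. Inhibitor replicate 1 was nearly as far from inhibitor replicate 3, with 1684 genes, as from control replicate 1, with 1726 genes. Over all pairs the median share was 21.4% for 3 pairs of inhibitor pools, 16.1% for 6 pairs of control pools and 15.3% for 12 pairs of an inhibitor and a control pool.

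**Figure D2:**
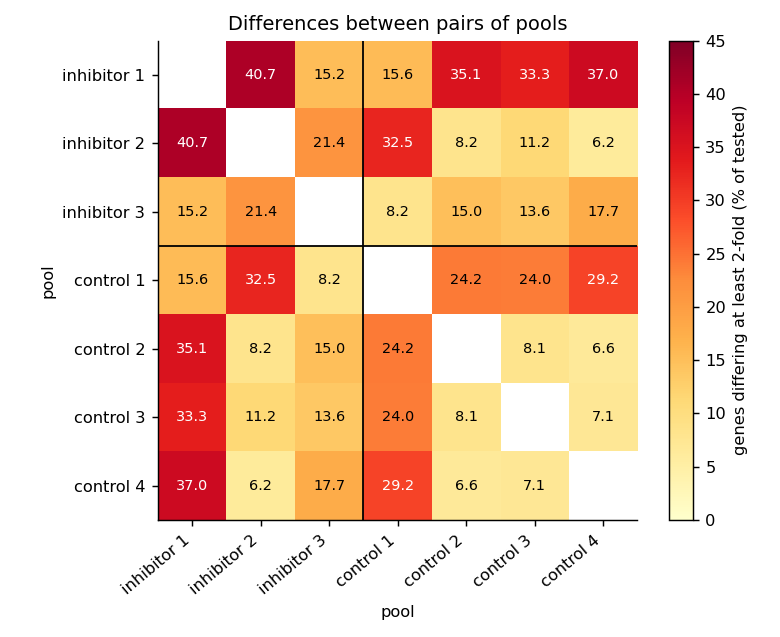
Share of the 11082 tested genes (in %) that differed at least 2-fold in log2 CPM between each pair of the 7 pools, with black lines between the inhibitor and control pools. The darkest cell joins inhibitor replicates 1 and 2 (40.7%), and the lightest joins inhibitor replicate 2 and control replicate 4 (6.23%).

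Beyond counting error, the pools of a group varied by a biological coefficient of variation of 0.432 in the miR-34c inhibitor group (n = 3) and 0.316 in the control group (n = 4). In the other groups it was 0.295 for the miR-34c mimic (n = 5), 0.135 for the NC mimic (n = 3) and 0.109 for the NC inhibitor (n = 3). Without inhibitor replicate 2 the spread of the inhibitor group was 0.307, and without control replicate 1 that of the control group was 0.17. By gene, the median SD of log2 CPM was 0.50 among inhibitor pools and 0.41 among controls, and the median size of the difference between the group means was 0.26. The difference of the means was larger than both SDs in 1546 genes, or 14.0%. In 2575 genes (23.2%) the inhibitor pools ranged both below and above every control, and in 2215 genes (19.99%) the controls ranged both below and above every inhibitor pool.

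No gene was DE between the miR-34c inhibitor and control groups, where DE stands for an adjusted p below 0.05 in edgeR's quasi-likelihood test together with a change of at least 2-fold either way (0 of 11082 genes, 0%). At an unadjusted p under 0.05 there were 748 genes, or 6.75% of those tested. Of these, 247 genes (2.23%) were lower and 501 genes (4.52%) were higher with the inhibitor. The smallest adjusted p was 0.0732. DESeq2 called 3 genes (0.0271%), limma voom 0 genes, and limma voom with sample quality weights 924 genes (8.34%), in a fit where inhibitor replicate 3 had a weight of 3.38 and inhibitor replicates 1 and 2 had 0.334 and 0.225. Leaving out inhibitor replicate 2 gave 2767 genes (24.2%) at an unadjusted p under 0.05, leaving out control replicate 1 gave 1742 (15.9%), and leaving out inhibitor replicate 1 gave 341 (2.99%). The labels do not say that the pools came from separate cultures, so the p-values measure a spread between pools. In the main fit that spread was estimated over all 18 libraries, including the NC groups, whose pools varied less. With only the 7 inhibitor and control libraries, 275 of 10154 genes had an unadjusted p under 0.05 in edgeR, and the smallest adjusted p was 0.979. With a term for the replicate number the count was 467 of 11082, and limma voom with sample quality weights gave 4630 of 11082.

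In 202 genes all 3 inhibitor pools were below all 4 control pools (1.82% of those tested), and in 257 genes all were above (2.32%). Among 3 and 4 pools some genes separate by a random order of the pools alone. Whether these counts exceed that was not tested. With CPM from the total counts, without the TMM factors, the numbers were 148 (1.34%) and 315 (2.84%). The median log2 fold change was -0.62 among the 202 genes and 0.63 among the 257 genes, against 0.0049 over all genes tested, and the sign and part of the size of these medians follow from choosing genes with no overlap. A fold change of at least 2-fold was found in 42 of the 202 and 46 of the 257, against 435 of all genes tested (3.93%), of which 347 had overlapping groups. Most of these gaps were narrow: the lowest control was a median of 1.08 times the highest inhibitor pool among the 202 genes, and the lowest inhibitor pool a median of 1.08 times the highest control among the 257. The gap was at least 1.5-fold in 9 genes that were lower and 11 that were higher. It was at least 2-fold in 2 genes, both lower in the inhibitor pools. Against 459 genes with no overlap in either direction, there were 2446 without inhibitor replicate 2 (21.4%) and 1467 without control replicate 1 (13.4%). Without inhibitor replicate 1 or 3 there were 871 of 11397 and 946 of 11301 genes tested. Without control replicate 2, 3 or 4 there were 596 of 11140, 684 of 11147 and 708 of 10992. Fewer pools are easier to separate, so some rise follows from leaving out any pool. The size of the rise differed between pools of the same group. No gene had at most 3 counts in every inhibitor pool and at least 10 in every control pool, out of 8943 genes with at least 10 counts in every control pool. No gene showed the opposite pattern out of 8905 genes.

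**Figure D3:**
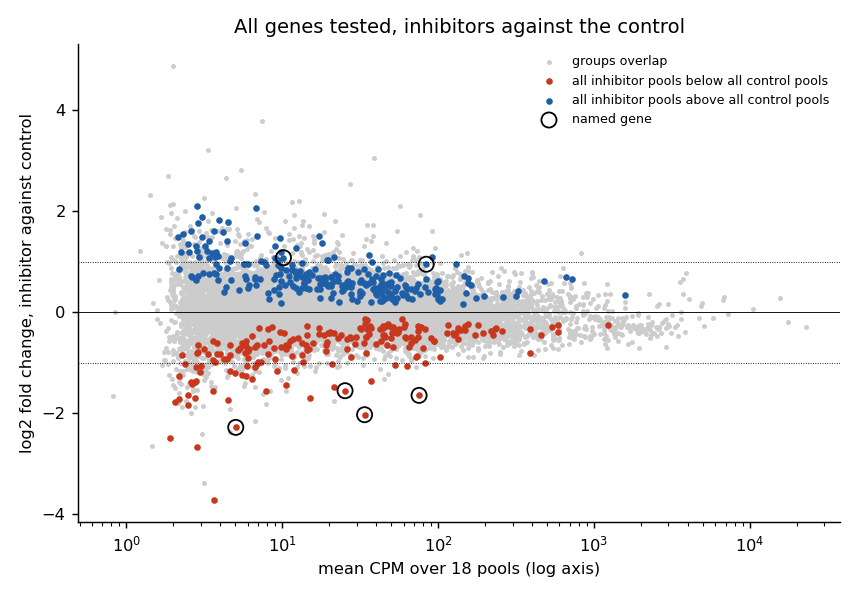
Log2 fold change of inhibitors against the control (y axis) by mean CPM over the 18 pools (x axis, log scale) for the 11082 genes tested, each point being 1 gene. Red points are the 202 genes with every inhibitor pool below every control, blue points the 257 genes with every inhibitor pool above, and black circles the 6 genes described by identifier. Dotted lines mark log2 fold changes of -1 and 1.

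ENSBTAG00000038112 had the smallest p of the comparison and also the widest gap between the groups. Its level was 43.2, 24.0 and 35.4 CPM in inhibitor replicates 1, 2 and 3, and 102, 119, 115 and 94.0 CPM in control replicates 1 to 4, from 59 to 149 counts and from 263 to 337 counts per pool. The lowest control was 2.18 times the highest inhibitor pool. The means were 34.2 ± 9.66 CPM (SD, n = 3) and 107 ± 11.5 CPM (SD, n = 4). The level was 3.14-fold lower with the inhibitor, a log2 fold change of -1.65 with a 95% interval from -2.22 to -1.09, and the adjusted p was 0.0732 in edgeR's quasi-likelihood test, above the threshold.

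The NC pools of this gene lay between both groups. The NC inhibitor pools had 73.5, 61.2 and 49.7 CPM and the NC mimic pools 57.9, 66.3 and 80.2 CPM, all above the inhibitor pools and below the controls. The 5 miR-34c mimic pools ranged from 47.8 to 106 CPM with a median of 101 CPM, and overlapped the controls. The lowest of them was replicate 2, with 47.8 CPM and a score of -44.6 on the first principal component, while the other 4 had 78.1 to 106 CPM and scores from 16.5 to 44.7. Among the inhibitor pools the order was the reverse, as replicate 2 had the highest score, 51.7, and the lowest level, 24.0 CPM. Control replicate 1, with a score of -36.6, had 102 CPM, between control replicates 4 (94.0 CPM) and 3 (115 CPM). The part of the first principal component in the level of this gene was not tested. Against the NC inhibitor pools the log2 fold change of the inhibitor pools was -0.85 (95% interval -1.43 to -0.26, adjusted p = 0.842 in edgeR), a comparison that shares the 3 inhibitor pools with the one above. The NC inhibitor pools had a log2 fold change of -0.80 against the same controls (adjusted p = 0.108 in edgeR).

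ENSBTAG00000047990 was the other gene at this adjusted p. It had 20.7, 12.6 and 7.8 CPM in inhibitor replicates 1 to 3, and 30.0, 56.3, 62.7 and 71.8 CPM in control replicates 1 to 4. The groups did not overlap, and control replicate 1, the pool that stood apart from the other controls, was the closest to the inhibitor pools. The level was 4.1-fold lower with the inhibitor, with means of 13.7 ± 6.52 CPM (SD, n = 3) and 55.2 ± 17.95 CPM (SD, n = 4). The log2 fold change was -2.03, with a 95% interval from -2.76 to -1.31 and an adjusted p of 0.0732 in edgeR. Without control replicate 1 it was -2.27 with an adjusted p of 0.0141, and without inhibitor replicate 1 it was -2.46 with an adjusted p of 0.0466, so that the gene was DE in both of these fits, as the only gene in each (0.00912% and 0.00877% of those tested).

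In the NC inhibitor pools ENSBTAG00000047990 had 33.95, 31.0 and 26.8 CPM, and in the NC mimic pools 35.0, 32.3 and 42.4 CPM. Every one of these was above the inhibitor pools, and 5 of the 6 were between control replicates 1 and 2, while NC inhibitor replicate 3 was below every control. The miR-34c mimic pools ranged from 17.9 to 42.4 CPM with a median of 28.2 CPM, all below control replicates 2, 3 and 4. Against the NC inhibitor pools the log2 fold change of the inhibitor pools was -1.19 (95% interval -1.94 to -0.44, adjusted p = 0.842 in edgeR). Against the controls it was -0.85 for the NC inhibitor pools (adjusted p = 0.123) and -0.94 for the miR-34c mimic pools (adjusted p = 1).

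ENSBTAG00000036102 was the third gene that DESeq2 called, beside both genes above. Its level was 9.1, 19.1 and 13.1 CPM in the inhibitor pools and 38.2, 48.7, 44.0 and 31.7 CPM in the controls. The groups did not overlap, and the lowest control was 1.66 times the highest inhibitor pool. It was 2.95-fold lower with the inhibitor, with a log2 fold change of -1.56 (95% interval -2.23 to -0.89) and an adjusted p of 0.406 in edgeR against 0.00626 in DESeq2. Low values were also found in the NC pools. The NC inhibitor pools had 24.8, 15.6 and 8.9 CPM, and the NC mimic pools 12.5, 14.5 and 13.2 CPM. Both NC groups overlapped the inhibitor pools and were below every control. The miR-34c mimic pools, from 24.0 to 43.6 CPM, overlapped the controls.

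ENSBTAG00000004197 was the other gene with a gap of at least 2-fold, and was chosen after its values were seen. It was scarce, with 6, 2 and 6 counts in inhibitor replicates 1, 2 and 3 and 35, 21, 12 and 18 counts in control replicates 1 to 4. These counts correspond to 2.59, 0.81 and 1.42 CPM against 10.6, 9.38, 5.23 and 6.07 CPM. The lowest control was 2.02 times the highest inhibitor pool. The log2 fold change was -2.29 with a 95% interval from -3.60 to -0.97, and the adjusted p was 0.720 in edgeR and 0.288 in DESeq2. In limma voom with sample quality weights, which called 924 genes, it was DE, with a log2 fold change of -2.19 and an adjusted p of 0.0106. The NC inhibitor pools had 3.83, 6.30 and 3.22 CPM, all above the inhibitor pools. miR-34c mimic replicate 3 had 0.731 CPM from 2 counts and was below every inhibitor pool.

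The higher genes with the smallest p were ENSBTAG00000007415 and ENSBTAG00000022449. ENSBTAG00000007415 had 127, 93.4 and 102 CPM in inhibitor replicates 1 to 3, and 65.5, 49.6, 63.6 and 43.8 CPM in control replicates 1 to 4. Its level was 1.93-fold higher with the inhibitor, with a log2 fold change of 0.95 (95% interval 0.52 to 1.38) and an adjusted p of 0.595 in edgeR. In DESeq2 its adjusted p was 0.0321 with a log2 fold change of 0.94, and in limma voom with sample quality weights the adjusted p was 0.00162, so that in both it missed DE by the size of the change alone. The NC inhibitor pools had 97.8, 107 and 121 CPM, within the range of the inhibitor pools. The NC mimic pools had 87.4, 78.3 and 73.7 CPM, above every control and below every inhibitor pool. The miR-34c mimic pools ranged from 59.5 to 109 CPM, and only replicate 4, the lowest, was not above every control. The log2 fold change between the inhibitor and NC inhibitor pools was -0.01, with a 95% interval from -0.48 to 0.45 and an adjusted p of 0.993. For this gene a 2-fold difference between those groups was thus outside the interval.

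ENSBTAG00000022449 had 11.7, 17.9 and 14.2 CPM in the inhibitor pools and 6.1, 7.6, 6.5 and 7.4 CPM in the controls, from 27 to 60 counts and from 15 to 22 counts per pool. The controls were close together, at 6.90 ± 0.724 CPM (SD, n = 4), and the lowest inhibitor pool was 1.54 times the highest control. The log2 fold change was 1.08 with a 95% interval from 0.57 to 1.59, and the adjusted p was 0.669 in edgeR and 0.257 in DESeq2. The NC inhibitor pools had 11.7, 11.1 and 9.3 CPM and the NC mimic pools 7.9, 9.8 and 10.0 CPM, also above every control. The miR-34c mimic pools ranged from 7.1 to 12.4 CPM, and only replicate 5, the lowest, was not above every control. The log2 fold change between the inhibitor and NC inhibitor pools was 0.44 (95% interval -0.09 to 0.97, adjusted p = 0.842).

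**Figure D4:**
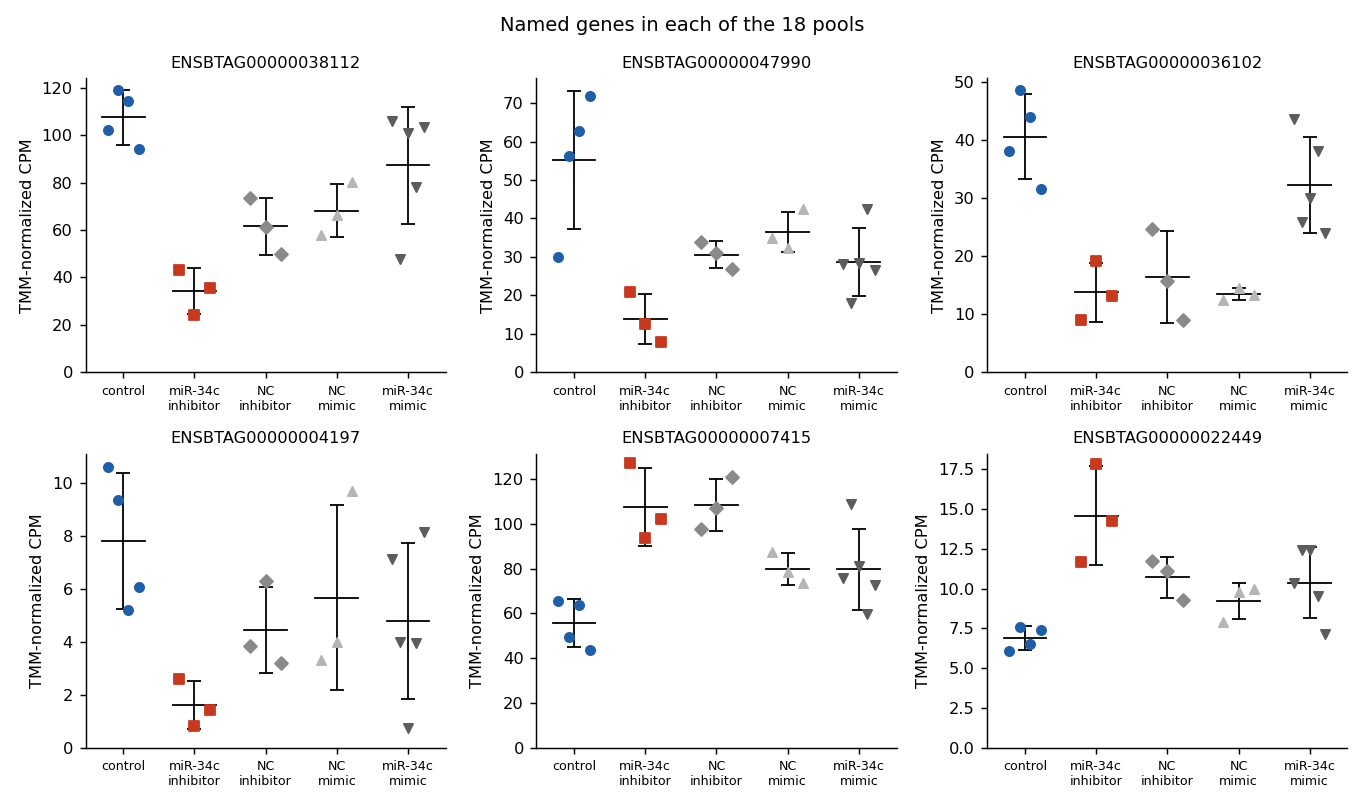
TMM-normalized CPM (y axis, from zero) of the 6 genes in each of the 18 pools by treatment (x axis). Points are pools, horizontal lines are group means and bars are SDs (n = 3 to 5 pools). The inhibitor pools sit below every control in the 4 panels with lower genes and above every control in the 2 panels with higher genes, and the NC pools often lie between them or with the inhibitor pools.

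The direction of these 6 genes did not turn in any of the fits that left out 1 pool, although the direction at the start was fixed by the choice of genes with no overlap. For ENSBTAG00000038112 the log2 fold change ranged from -1.84 to -1.45 across the 7 fits and the adjusted p from 0.0617 to 0.725. For ENSBTAG00000047990 it ranged from -2.46 to -1.73 and the adjusted p from 0.0141 to 0.725. When only the 7 inhibitor and control libraries were fitted, the adjusted p of both genes was 0.979. Both genes were DE, and no others were, when at least 10 counts were required in every library (adjusted p = 0.0445 for each in edgeR, 0.0244% of 8192 genes) and with no filter on low counts (adjusted p = 0.0101 for each, 0.0103% of 19430 genes). In DESeq2 the adjusted p was 1.63e-05 for ENSBTAG00000038112 and 2.84e-05 for ENSBTAG00000047990.

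**Figure D5:**
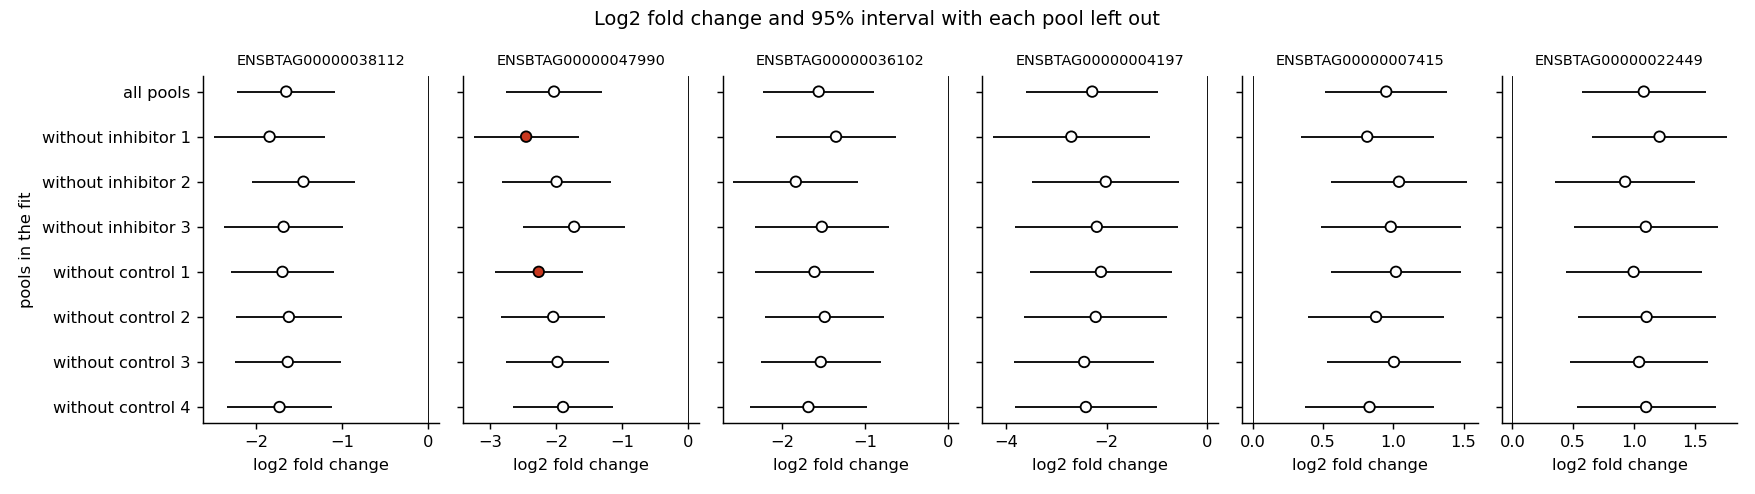
Log2 fold change of inhibitors against the control (x axis) with its 95% interval for the 6 genes, with all pools and with each inhibitor or control pool left out (y axis). A filled red point marks a fit in which the gene was DE, which was the case for ENSBTAG00000047990 without inhibitor replicate 1 and without control replicate 1. Every interval drawn lies on the same side of zero as the one from all pools.

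The intervals show which changes the pools leave possible, given a spread estimated over all 18 libraries. The 95% interval of the log2 fold change lay within a 2-fold change in either direction in 5880 of 11081 genes (53.1%), the remaining gene having no defined interval. The median half-width was 1.01 on the log2 scale for genes under 10 CPM, where 16.9% of 3119 genes had such an interval. It was 0.61 for genes of 10 to 50 CPM (63.9% of 4615), 0.53 for 50 to 200 CPM (72.6% of 2515) and 0.55 for genes over 200 CPM (69.0% of 833). Higher abundance beyond 50 CPM did not narrow the interval further. Without inhibitor replicate 2 the share within a 2-fold change was 36.0%. With only the 7 inhibitor and control libraries, and their own spread, that share was 42.2% of 10154 genes. Against the NC inhibitor group, 0 of 11082 genes were DE for the inhibitor pools, with 450 genes (4.06%) at an unadjusted p under 0.05. The latter count rested on single pools. It was 1907 of 11397 genes tested without inhibitor replicate 1, 167 of 11429 without inhibitor replicate 2 and 720 of 11301 without inhibitor replicate 3. Leaving out NC inhibitor replicate 1, 2 or 3 gave 265 of 11276, 233 of 11296 and 269 of 11414 genes. Set against the same 4 controls, the NC inhibitor pools also gave 0 DE genes, but 2955 genes (26.7%) at an unadjusted p under 0.05, more than the 748 for the miR-34c inhibitor pools. On the first principal component the NC inhibitor pools lay together at -44.3, -43.9 and -39.8, on the side of control replicate 1 and away from the other 3 controls, while the inhibitor pools lay on both sides of zero. The part of this position in the counts was not tested. The comparisons of the NC inhibitor and miR-34c inhibitor pools with the control share the controls, and the difference between their counts was not tested.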

How the data were processed

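The members of the comparison, the thresholds and the rule for naming genes were chosen with earlier results of these data known. The authors deposited 1 table with the estimated counts of each gene, not normalized, in which every value was a whole number. The submitters' processing notes name FastQC 0.11.9, cutadapt 3.7, STAR 2.7.10a, UMI-tools 1.1.4, RSEM 1.3.3 and the build ARS-UCD1.2, without settings. RSEM divides reads that fit several genes, so genes with a near-identical copy are uncertain.

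Counts were rounded and analysed in R 4.3.3 with edgeR 4.0.16 (filterByExpr by treatment, TMM, glmQLFit and glmQLFTest). All 18 libraries were fitted together with treatment as the only term, and p-values were adjusted by Benjamini-Hochberg over 11082 genes. Log2 CPM used a prior count of 2. Totals are in the report. Alternatives included DESeq2 1.42.0, limma 3.58.1 (voom), other size factors and filters, a replicate block and leaving out each pool. The scripts were tested on simulated data. All 9 pairs of pools within both groups differed by more than the sampling noise (chi-square per degree of freedom of 5.42 or more, using genes whose summed count reached 20), so no pair was treated as 1 library deposited again; this does not show that the pools came from separate cultures.

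Named were, in each direction, the 2 genes with the smallest p among those without overlap between groups, each gene DE in an alternative that called at most 5 genes, and 1 gene chosen after its values were seen. Planned marker lists were not analysed here, since 0 identifiers matched the 37063 rows of the RefSeq gene table.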

Additional observations from a re-analysis of the deposited data

Results flagged for a closer look

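Among the control pools, replicate 1 had a TMM factor of 1.08 and the other 3 had factors from 0.912 to 0.935. The distance to its nearest neighbour took up 0.861 of the spread from lowest to highest, and Dixon's test at 95% sets its limit at 0.829 for 4 samples. No other pool was set apart in the 18 sets of values tested in the control and miR-34c mimic groups, of which about 1 in 20 would be by chance. Without this pool 1 gene was DE for inhibitors against the control, ENSBTAG00000047990.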

How the results depend on the processing

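For inhibitors against the control, 9 of 15 fits other than the one reported gave 0 DE genes, and the adjusted p alone gave 0 as well. There were 2 DE genes with at least 10 counts in every library and the same 2 with no filter on low counts (ENSBTAG00000038112 and ENSBTAG00000047990), 3 with DESeq2 and 924 with limma voom and sample quality weights. At an unadjusted p under 0.05 the count was 467 of 11082 with the replicate block and 275 of 10154 with only the 7 libraries. It was 4630 of 11082 with sample quality weights, and the cause of these shifts was not tested. With at least 10 counts in every library, 171 genes were higher with no overlap, out of fewer genes tested (8192). With only the 7 libraries 42.2% of intervals lay within a 2-fold change. Across fits without 1 pool, DE genes ranged from 0 to 1, and genes at an unadjusted p under 0.05 from 341 (2.99%) to 2767 (24.2%). Genes with no overlap ranged from 303 (2.72%) to 1019 (8.92%) lower and from 293 (2.63%) to 1427 (12.5%) higher. The share of intervals within a 2-fold change ranged from 36.0% to 54.3%. The coefficient of variation ranged from 0.307 to 0.564 in the inhibitor and from 0.17 to 0.355 in the control group. Inhibitors against NC inhibitors gave 0 DE genes in each of 6 fits without 1 pool. Of 89 alternative values for the 6 named genes, 0 changed sign and 13 passed both thresholds. Both counts follow in part from the naming rule, which took genes with no overlap and genes DE in such fits. Same-numbered inhibitor and control pools had correlations of deviations of 0.638, 0.416 and 0.0113, and inhibitor replicate 2 correlated best with control replicate 4, so the numbers were not taken as pairs. The replicate block gave 0 DE genes.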
